A study of Mus musculus with 5 samples.

Results

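The comparison set the array of 32D cells carrying the FLT3-ITD construct ITD613 against the 3 arrays of the constructs ITD598, ITD602 and ITD611, gene by gene. Each gene was represented by 1 probe set, the one with the highest mean over all 5 arrays of the series. The difference was the ITD613 value minus the mean of the 3 reference arrays, on the log2 scale. A gene passed the size rule, and is called higher or lower below, where its ITD613 value lay at least 1 log2 (2-fold) beyond all 3 reference arrays. Of 9554 genes above a low-value filter, 271 (2.84%) were higher and 224 (2.34%) were lower, together 495 genes (5.18%). These shares are the background against which counts of gene groups are read. The rule of 1 log2 itself chose these genes, so their distances are descriptions and nothing was tested.

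32D is a mouse myeloid progenitor line that normally needs interleukin-3, and FLT3 is a growth factor receptor with tyrosine kinase activity found on blood progenitors. All groups were 32D cells stably carrying a retroviral construct of FLT3 with an internal tandem duplication (ITD), an insertion that makes the receptor signal without ligand. The labels name the 4 groups used here FLT3 ITD598, FLT3 ITD602, FLT3 ITD611 and FLT3 ITD613, but give neither the meaning of the numbers nor whether the cells of a construct are 1 clone or a pool, and they leave unsaid whether the receptor is mouse or human. In every group, the references included, cells were starved for 3 h and then given a tyrosine kinase inhibitor (TKI), not named in the labels, for 1 h before RNA was taken. Each construct had 1 Affymetrix mouse expression array, with no replicate, and neither an array without a construct nor one without the inhibitor was used here. Differences between constructs and between single cultures or arrays therefore cannot be told apart, and having 1 array per construct limits the precision of every value.

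The FLT3 receptor passes its signal through STAT5, the RAS and ERK cascade and the PI3K and AKT pathway, whose targets include PIM kinases, ERK feedback phosphatases and genes held down when FOXO factors are kept out of the nucleus. MYC drives ribosome production, and growth signals together with hypoxia-inducible factors raise glycolysis. Red cell development is directed by GATA1, KLF1, TAL1 and their partners, which switch on globins, heme enzymes and the proteins of the red cell membrane, while granulocytes and macrophages depend on factors such as PU.1 and RUNX1.

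The 4 arrays had medians between 1.99 and 2.05 over the probe sets, and between 23.7% and 30.3% of the probe sets of an array held a value that at least 100 of them shared. The highest such shared value was 3.74, and the size of a difference that reaches below it is uncertain. The ITD602 array stood apart in the spiked-in bioB control, which read 6.10 there and 2.45 to 2.83 on the other 3. Its title also carries a different date-like string. Without this array 287 genes were higher and 233 lower, but leaving out a reference can only keep or add genes. These counts therefore do not show how far ITD602 affects the result. Of 10 markers of the line fixed for this comparison, 6 passed the filter, and Kit (0.66 to 0.92) and Cd34 (0.64 to 0.67) were in the low range on all 4 arrays. The summed level of these 10 markers was 10.40, 10.56 and 10.54 on the references and 10.35 on ITD613. Among them, Ptprc, which encodes the leukocyte antigen CD45, fell from 8.93, 9.0 and 8.96 to 7.41, and Csf2rb fell as well, whereas Myb, a progenitor transcription factor, read 8.91, 9.09 and 9.09 and 9.91, which did not pass the rule. Values of 3 reference arrays are given throughout in the order ITD598, ITD602 and ITD611. Markers of B cells, T cells, fibroblasts and epithelial cells had no member at or above 3.74 on any array. Of the endothelial markers only Pecam1 reached it, with 3.74, 4.16 and 3.74 on the references and 3.63 on ITD613. The mouse Flt3 probe set read 1.94, 1.90 and 1.74 and 1.99 on ITD613, all below the filter value of 2.75, which checks nothing about the constructs.

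**Figure D1:**
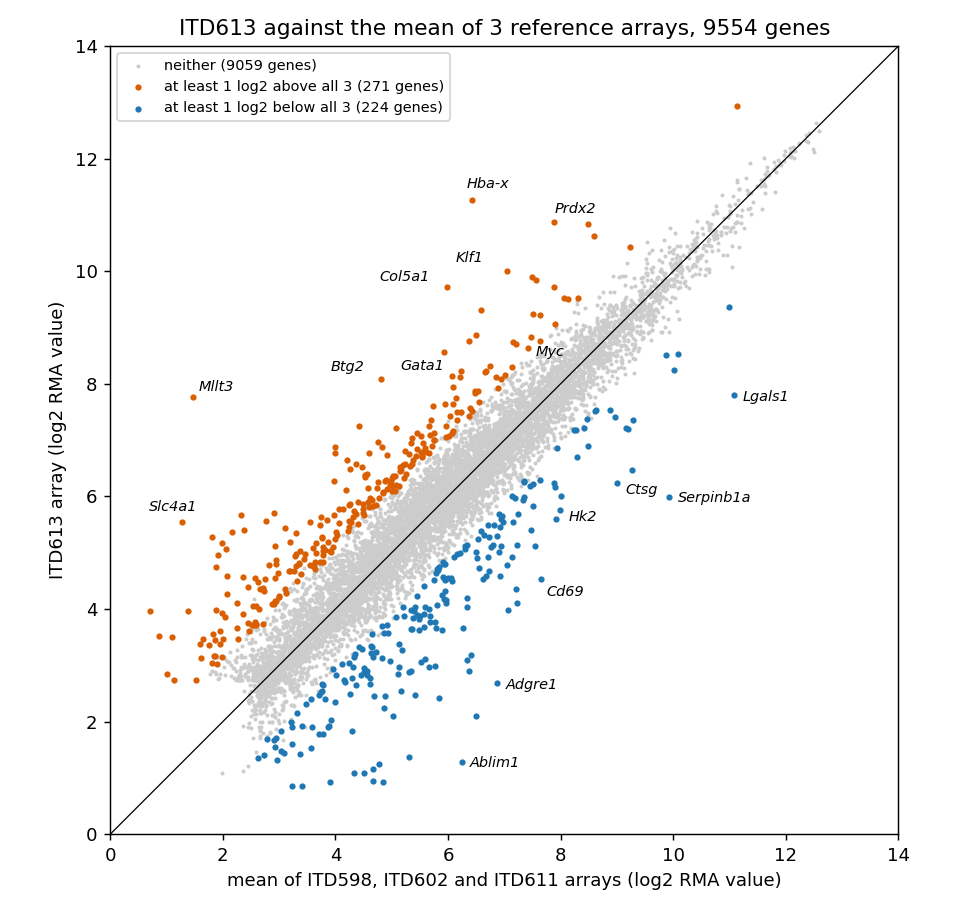
Log2 RMA value on the ITD613 array (vertical axis) against the mean of the ITD598, ITD602 and ITD611 arrays (horizontal axis), 1 point per gene, with the line of equal values. Orange points are the 271 genes at least 1 log2 above all 3 reference arrays, blue points the 224 genes at least 1 log2 below all 3, and grey points the other genes.

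The plot of ITD613 against the reference mean shows most genes along the line of equal values and the genes past the rule on either side of it. Over all 9554 genes the median difference was 0.011 and the SD of the differences across genes 0.575, with 51.6% of the genes above the reference mean. The 3 reference arrays lay close together, with a median range of 0.188 per gene and a range of 1 or more in 38 genes (0.398%). Some genes read the same on all 3 references even above 3.74, such as Narf (4.41) and Fndc3a (6.53). How far such equal values narrow the range was not tested. The 271 higher genes lay 1.00 to 5.94 above the nearest reference (median 1.28), 86 of them by at least 1.5 and 41 by at least 2. The 224 lower genes lay 1.00 to 4.71 below (median 1.41), 104 of them by at least 1.5 and 46 by at least 2. ITD598 was the nearest reference for 161 of the higher and 118 of the lower genes, with ties that included it counted to it. The range among the references was smaller than the distance to ITD613 in 269 of the higher and in all 224 lower genes. Few genes had a range as large as the 1 log2 that the rule asks for, so this follows largely from the rule.

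Many of the lower genes were set by values in the low range. When lower values were raised to 3.74, 206 higher (2.16%) and 148 lower genes (1.55%) still passed. For 54 higher genes only the ITD613 value was at or above the filter, and for 58 lower genes the ITD613 value lay below it. Where a gene had several probe sets above the filter, all of them had the sign of the difference in 98 of 110 higher and in 83 of 91 lower genes. The rule cut through a dense region: 65 higher genes lay within 0.1 inside the threshold and 91 within 0.1 outside it, and the lower side had 45 and 46. Just outside were Lgals9 (0.997) and Cpt1a (0.995) above the references, and Riok2 (0.999) and Stk17b (0.999) below them. Just inside were Rbm20 (1.002) and Zfp882 (1.004) on the higher side and Ltc4s (1.002) and Tnpo1 (1.005) on the lower. In all, 86 of the 495 genes belonged to 1 of 41 gene lists, of which 646 of 959 genes passed the filter, and 409 belonged to none.

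Among the lists, erythroid genes were the largest group of higher genes. Of the 50 genes on lists of erythroid transcription factors, globins, red cell membrane and heme genes that passed the filter, 26 (52.0%) were higher and 1 (2.0%) was lower. Their median difference was 1.14, against shares of 2.84% and 2.34% and a median of 0.011 over all genes. However, 5 of the membrane genes passed the filter only through ITD613, which raises the share of higher genes. Hbb-b2, counted as higher, reversed under another choice of probe sets, and the lists were chosen with earlier results of these data known. The group included the factors Klf1 and Gata1, all 4 globin genes above the filter, band 3 and ankyrin of the membrane, and several enzymes of heme synthesis. The summed level of 8 erythroid markers, 6 of them on the array, was 8.03, 7.48 and 7.77 on the references and 10.45 on ITD613. Linear values were summed, so the strongest marker, Klf1, weighs most. Of the 6 markers 4 were higher, whereas Epor (3.24, 3.24 and 3.08, and 3.11) and Hba-a1 (1.02 on each reference, and 1.28) did not pass. In RNA of a whole culture, more cells of an erythroid type and more of the higher transcripts per cell cannot be told apart.

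Of the 14 erythroid transcription factor genes that passed the filter, 5 were higher and none was lower, with a median difference of 0.80. Klf1, the erythroid activator of the adult beta-globin gene, read 7.36, 6.68 and 7.08 on the references and 10.01 on ITD613, a difference of 2.97 (7.83-fold). Gata1, the master regulator of the erythroid lineage, read 6.29, 5.84 and 6.05 and then 8.14. Nfe2, which encodes a leucine zipper partner in globin gene control, read 6.75, 6.69 and 6.56 against 8.23 on ITD613. In these 3 genes the ranges among the references were 0.67, 0.44 and 0.19. Gfi1b, a repressor needed for red cells and platelets, read 5.66, 5.59 and 5.54 and then 6.87. Tal1, the helix-loop-helix factor that binds DNA with GATA1, read 8.46, 8.23 and 8.24 and 9.53 on ITD613. Of the factors that work with these, the adaptor Lmo2 read 9.89, 9.38 and 9.31 and 10.52, a difference of 0.99 that did not pass. Zfpm1, which encodes the GATA1 cofactor FOG1, read 7.65, 7.45 and 7.29 and 8.19, and also did not pass. Lmo2 and Zfpm1 were chosen after their values were seen. Each of these 7 genes had its highest value on ITD613. Over the 14 genes of the list 11 differences were positive and 3 negative, the lowest -0.40, and 2 genes lay below all 3 references.

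All 4 globin genes that passed the filter were higher, with a median difference of 2.69, but they also varied most among the references. Hba-x, the embryonic zeta-type alpha globin, read 7.13, 5.44 and 6.73 on the references and 11.27 on ITD613, which was the largest distance from the nearest reference after low values were raised (4.13). Hbb-bh1, an embryonic beta-type globin, read 8.65, 6.85 and 8.16 and then 10.87. Hbb-y, the other embryonic beta-type gene, read 11.74, 10.31 and 11.37 and 12.92 on ITD613. ITD602 was the lowest and ITD598 the highest reference in each of the 4 genes, and the median range among the references was 1.75 in this list. Hbb-b2, an adult beta globin, read 7.41, 5.18 and 6.51 and 8.75, but when _x_at and _s_at probe sets, which can bind several similar transcripts, were left out, its difference was -0.65. The globin genes resemble one another, so that the signal of 1 gene may include that of another. The adult alpha globins stayed below the filter on all 4 arrays: Hba-a1 read 1.02 on each reference and 1.28 on ITD613, and Hba-a2 read 2.31, 1.27 and 1.47 and then 1.80.

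Red cell membrane and skeleton genes had the highest median of the lists with at least 5 genes above the filter, 2.14, and 10 of the 15 that passed the filter were higher and none was lower. In 5 of these genes only the ITD613 value passed the filter, and with low values raised the median was 1.32. Slc4a1, the anion exchanger known as band 3, read 1.22, 1.41 and 1.22 on the references and 5.55 on ITD613. Epb42, the band 4.2 protein bound to it, read 1.88 on each reference and 4.75 on ITD613. Rhag, the Rh-associated channel, read 3.37, 2.28 and 3.08 and then 5.70. These 3 genes moved out of the range of shared values, so the sizes of their differences (4.27, 2.87 and 2.79) are uncertain. Ermap, an erythroblast surface protein of the Scianna blood group, read 1.93, 2.04 and 1.75 and 4.96. Mfsd2b, the exporter of sphingosine-1-phosphate in red cells, read 2.34, 2.58 and 2.19 and 5.41, and Tspo2, an erythroid membrane protein, read 2.37, 2.02 and 1.78 and 5.06. Measured above that range on most arrays were Ank1 and Kel. Ank1, the ankyrin that ties band 3 to spectrin, read 4.22, 3.55 and 4.22 and then 6.77. Kel, the Kell blood group protease, read 5.17, 4.86 and 5.22 and 7.22. Epor, the erythropoietin receptor gene, chosen after its values were seen, did not move with them and read 3.24, 3.24 and 3.08 and 3.11 on ITD613, in the low range.

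Heme and iron genes followed, with 7 of 17 higher, 1 lower and a median difference of 0.83. Alad, whose enzyme joins the first heme precursors into a pyrrole, read 8.92, 8.34 and 8.55 on the references and 10.63 on ITD613. The later enzymes were also higher: Uros read 5.41, 5.41 and 5.29 and then 6.65. Urod read 8.26, 7.88 and 8.05 and 9.53. Cpox read 5.82, 5.04 and 5.16 and 6.95. ITD613 was above every reference in all of these steps of heme synthesis. Fech, the enzyme that inserts the iron, named here after its values were seen, read 6.09, 6.05 and 6.05 and 7.12, but 1 of its 4 probe sets above the filter had the opposite sign. Abcb10, a mitochondrial transporter of erythroid cells, read 6.10, 5.81 and 5.93 and 7.65, and Blvrb, which reduces biliverdin, read 7.91, 7.34 and 7.42 and 9.84. Hmox1, the enzyme that breaks heme down, was the only lower gene and read 4.59, 4.76 and 4.62 and 3.55, which no longer passed with low values raised. Alas2, the erythroid enzyme of the first step, chosen after its values were seen, was below the filter on every array (1.33, 1.46 and 1.74, and 1.43 on ITD613).

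**Figure D2:**
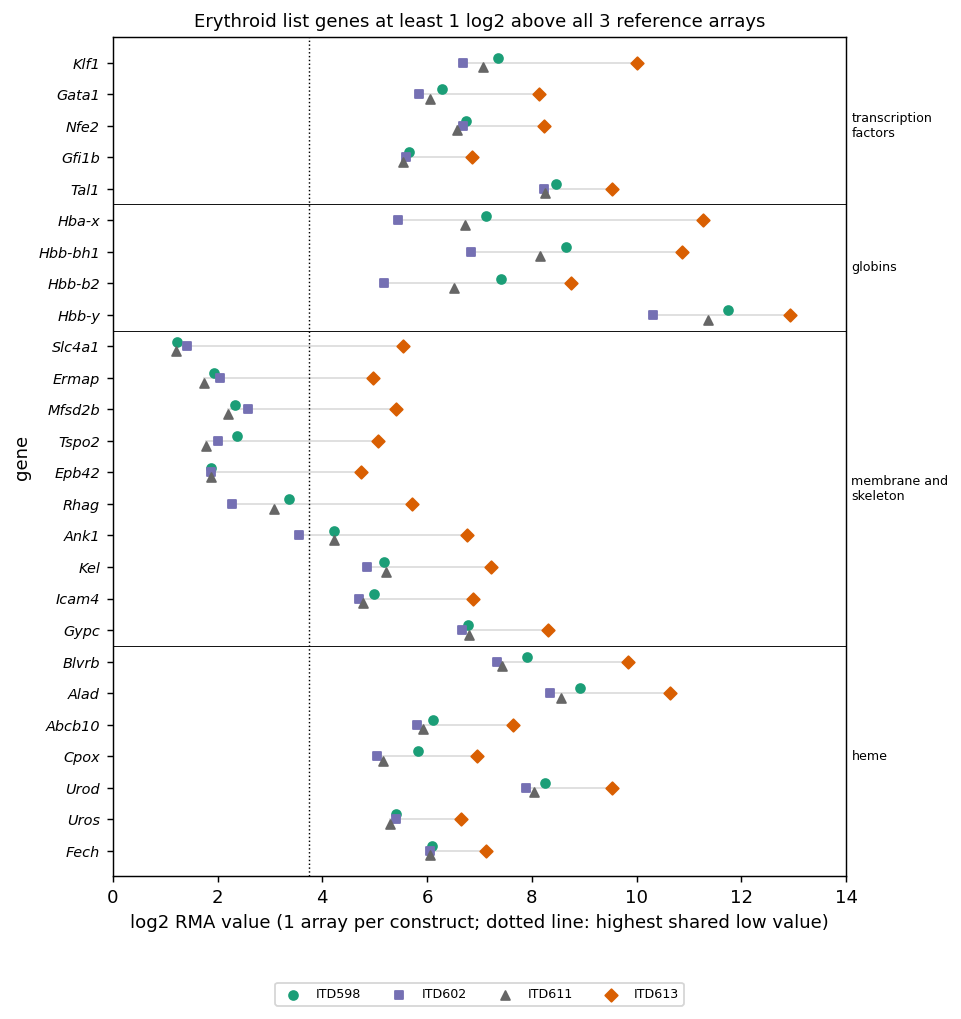
Log2 RMA values (horizontal axis) of the 26 genes of the erythroid lists that were at least 1 log2 above all 3 references, 1 row per gene and 1 symbol per array, with 1 array per construct. The ITD613 diamonds lie to the right of the reference symbols in every row, as the rule requires; the dotted line marks 3.74, the highest shared value, and most membrane genes start to its left.

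The promoters of higher erythroid genes were searched for AGATAA, bound by GATA factors, and for CACACCC, bound by KLF1, on both strands, in RefSeq windows of GRCm38.p6 from 250 bases before to 50 after the start. Klf1 is shown as the leading factor and Ermap as the matched membrane gene with the largest difference. In the Klf1 window, chr8:84901732-84902031 on the + strand, capitals mark its CACACCC match, which begins at base 135 of the window. The Ermap window, chr4:119189946-119190245 on the - strand, held neither AGATAA nor CACACCC. For GATA factors and KLF1 only these letters were searched, so a window without a match may still hold a site.
Klf1: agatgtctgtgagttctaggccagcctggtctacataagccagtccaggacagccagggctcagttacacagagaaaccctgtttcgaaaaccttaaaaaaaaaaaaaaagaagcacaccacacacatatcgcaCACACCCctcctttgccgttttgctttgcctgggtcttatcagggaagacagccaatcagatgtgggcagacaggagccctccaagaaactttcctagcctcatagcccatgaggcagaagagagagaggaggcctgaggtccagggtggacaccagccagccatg
Ermap: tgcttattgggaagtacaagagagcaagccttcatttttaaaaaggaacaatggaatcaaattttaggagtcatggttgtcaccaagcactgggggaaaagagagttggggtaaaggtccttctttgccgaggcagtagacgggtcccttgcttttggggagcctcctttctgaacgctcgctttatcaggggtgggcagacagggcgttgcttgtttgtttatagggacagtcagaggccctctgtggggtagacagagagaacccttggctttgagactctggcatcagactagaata
AGATAA was in 5 of the 17 matched promoters of higher erythroid genes (29.4%), against 481 of 7828 promoters of genes tested (6.14%). The red cell membrane list held it in 5 of 11 promoters (45.5%). CACACCC was in 3 of the 17 (17.6%), against 8.07% of the genes tested. Among all 221 matched promoters of higher genes the shares were 9.95% for AGATAA and 8.60% for CACACCC, and among 178 of lower genes 6.18% and 10.7%. A match describes letters in a window and shows no binding.

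Outside the erythroid lists, the higher genes with the largest distances included a regulator, an antiproliferative gene and a collagen. Mllt3, a chromatin reader that binds acylated histones and is fused to MLL in leukaemias, read 1.83, 1.29 and 1.29 on the references and 7.76 on ITD613, with all 3 of its probe sets above the filter passing the rule. Btg2, an antiproliferative gene induced by p53, read 5.08, 4.75 and 4.63 and then 8.08. Col5a1, a chain of fibrillar collagen V, read 6.69, 5.28 and 5.97 and 9.72. The Mllt3 references lay in the low range, whereas those of Btg2 and Col5a1 were measured above it. Stx2, a syntaxin of membrane fusion, read 4.10, 3.91 and 3.98 and 6.88. Narf, a binding protein of prelamin A, read 4.41 on each reference and 7.24. Greb1, known as an oestrogen-responsive gene, read 5.24, 6.21 and 6.36 and 8.57. These 3 genes differ in known function and shared no list. Tsc22d1, a leucine zipper gene induced by TGF-beta, read 7.65, 7.54 and 7.30 and 9.90, and Pdcd4, an inhibitor of the translation helicase eIF4A, read 6.72, 6.32 and 6.48 and 8.86.

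Redox genes and a histone gene were also among the 20 higher genes furthest from the nearest reference after low values were raised. Prdx2, a peroxiredoxin abundant in red cells, read 8.78, 8.29 and 8.41 on the references and 10.84 on ITD613. Mgst3, a microsomal glutathione transferase, read 7.14, 6.18 and 6.41 and 9.31. Nqo1, a quinone reductase, read 4.29, 3.80 and 3.84 and 6.27. All 3 encode enzymes that act on peroxides or quinones. H3f3b, a gene of the replication-independent histone H3.3, read 4.75, 4.60 and 4.43 and 6.77. Cetn4, a centrin gene, read 4.25, 4.25 and 4.26 and 6.49, and Tbc1d2b, which has a Rab GTPase-activating domain, read 4.41, 4.33 and 4.36 and 6.57. Meg3, an imprinted long non-coding RNA, read 4.58, 3.69 and 4.36 and 6.64, but only 2 of its 4 probe sets above the filter were higher, and without _x_at and _s_at probe sets its difference was -0.08.

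After values below 3.74 were raised to it, the lower genes with the largest distances were Serpinb1a, Lgals1 and Cd69. Serpinb1a, an inhibitor of neutrophil proteases, read 9.85, 10.01 and 9.92 on the references and 5.99 on ITD613, a difference of -3.94 (15.3-fold lower). Lgals1, the lectin galectin-1, read 11.00, 11.24 and 11.00 and then 7.80. Cd69, induced early when lymphocytes are activated, read 7.88, 7.52 and 7.54 and 4.53. The references of these 3 genes spanned 0.16, 0.24 and 0.36, and ITD613 lay 3.86, 3.20 and 2.99 below the nearest. Gzmb, the cytotoxic protease granzyme B, read 7.27, 6.91 and 7.02 and 3.98. Ctsg, the granule protease cathepsin G, read 9.09, 9.17 and 8.77 and 6.24. Ifitm1, an interferon-induced membrane protein, read 8.86, 9.74 and 9.17 and 6.47. All 3 stayed above 3.74 on ITD613, so their distances were measured on both sides.

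Further lower genes acted in the cytoskeleton, metabolism and transport. Tuba8, a tubulin gene, read 7.20, 7.54 and 6.95 on the references and 4.11 on ITD613. Ablim1, an actin-binding LIM protein, read 6.0, 6.51 and 6.21 and 1.29. Ablim1 had the most negative difference of the 20 genes (-4.95), but its ITD613 value lay in the low range. Fbp2, a fructose bisphosphatase, read 7.02, 7.25 and 7.36 and 4.35, and Hk3, a hexokinase of blood cells, read 6.45, 6.38 and 6.17 and 4.04. Ddc, the decarboxylase that makes dopamine and serotonin, read 6.27, 6.73 and 6.49 and 2.09. Emb, a membrane partner of monocarboxylate transporters, read 6.19, 6.61 and 6.31 and 2.91. Slco3a1, an organic anion transporter, read 5.98, 5.89 and 5.82 and 3.63, and Clec2i, a C-type lectin, read 6.83, 7.02 and 6.92 and 4.59.

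**Figure D3:**
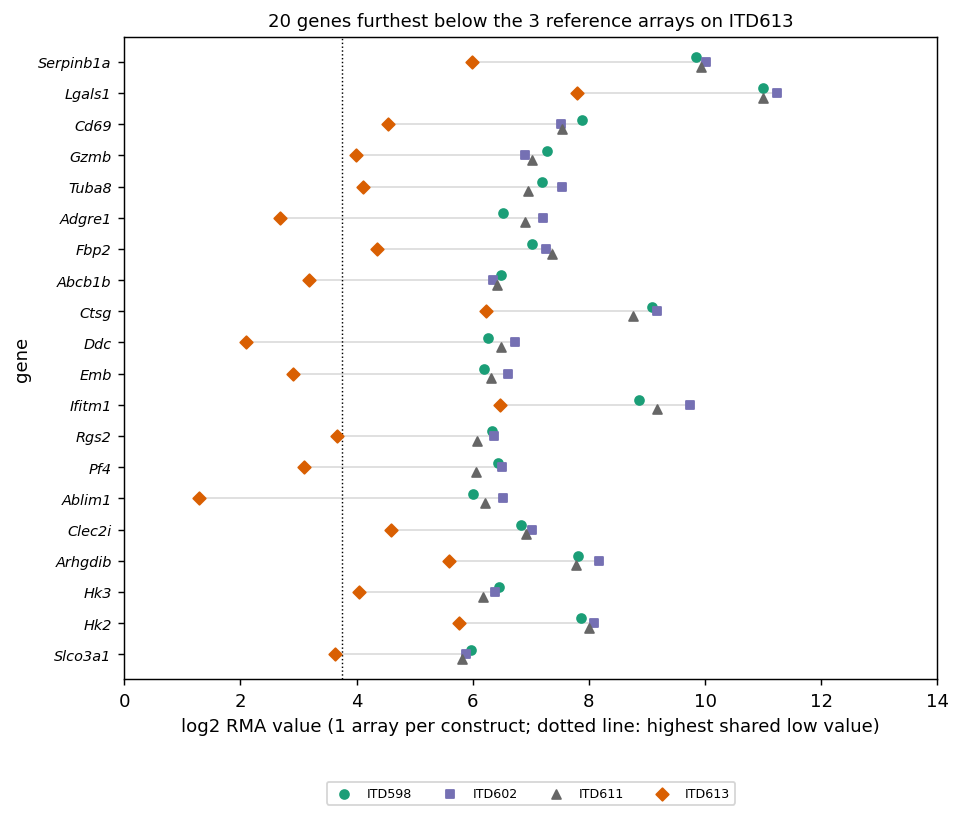
Log2 RMA values (horizontal axis) of the 20 genes furthest below the nearest reference array on ITD613 after values under 3.74 were raised to it, 1 row per gene and 1 symbol per array. The reference symbols cluster to the right and the ITD613 diamond lies to the left in every row, as the rule requires; diamonds left of the dotted line at 3.74 lie in the range of shared values.

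In both receptor lists, the genes that passed the rule were lower. Of 9 genes of the interleukin-3 and GM-CSF receptor list, which also holds interferon and related cytokine receptors, 2 were lower and none higher, with a median difference of -0.61, or -0.35 with low values raised, -0.27 without the filter and -0.24 with probe sets averaged. Csf2rb2, the mouse-specific beta chain of the interleukin-3 receptor, read 7.16, 7.81 and 7.66 on the references and 5.12 on ITD613. Csf2rb, the common beta chain of the GM-CSF receptor and its relatives, read 7.96, 8.39 and 8.54 and 6.71. The probe sets of these 2 similar, neighbouring genes may share signal. Il3ra, which encodes the alpha chain and was chosen after its values were seen, read 3.66, 3.62 and 3.50 and 3.69. Of 6 receptor tyrosine kinase genes 3 were lower: Met, the hepatocyte growth factor receptor, read 4.04, 4.12 and 3.53 and 0.92. Axl, a receptor for GAS6, read 4.37, 4.71 and 4.33 and 3.28, and Csf1r, the macrophage growth factor receptor, read 3.96, 3.66 and 3.66 and 2.54, with 1 of its 2 probe sets of the opposite sign. With low values raised, none of these 3 passed the rule.

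Monocyte and macrophage genes had a median difference of -0.78 over 8 genes, and 3 were lower and none higher. With low values raised the median was -0.11 and 2 were lower, and without the filter the median was -0.05. Adgre1, a surface marker of mouse macrophages, read 6.51, 7.21 and 6.91 on the references and 2.68 on ITD613. Fcgr1, the high-affinity IgG receptor, read 5.25, 5.83 and 5.48 and 3.06. Of 5 macrophage markers 3 were above the filter, and the summed level of all 5 was 7.25, 7.83 and 7.53 and then 4.74, while Cd68 (1.46 to 2.36) and Cd14 (1.77 to 1.88) were in the low range on all 4 arrays. The part of macrophage-type cells in these differences was not tested. Of 10 myeloid transcription factor genes 2 were lower, with a median of -0.71, or -0.17 with low values raised. Id2, an inhibitor of helix-loop-helix factors, read 7.09, 7.01 and 6.58 and 5.01. Runx1, the core binding factor gene, read 5.11, 5.45 and 5.06 and 4.03 on the probe set used, but 4 of its 6 probe sets above the filter were higher and the mean of its probe sets differed by 0.09. Spi1, the gene of PU.1, chosen after its values were seen, read 4.41, 4.70 and 4.46 and 3.63, a difference of -0.90 that did not pass.

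The median of the neutrophil granule list changed sign with the references, and that of the mast cell list depended on the filter. Of 11 neutrophil granule genes that passed the filter 2 were lower, Ctsg and Prtn3, and none was higher. Prtn3, the granule protease proteinase 3, read 7.20, 7.45 and 6.81 on the references and 5.55 on ITD613. The list's median of -0.15 turned to 0.02 without ITD598 or without ITD602 and to -1.08 without ITD611, and the references differed in this list by a median of 0.64. Of 9 mast cell, basophil and eosinophil genes, 4 were higher and none lower, with a median of 1.61, or 0.23 with low values raised and 0.02 without the filter. In 3 of the 4 higher genes, Epx, Fcer1a and Cpa3, only the ITD613 value passed the filter, so their count and the median support nothing about the list. Epx, the eosinophil peroxidase, read 2.14, 1.90 and 1.90 and 5.18. Il6, the cytokine interleukin-6, read 3.12, 3.09 and 3.12 and 5.43. Fcer1a, a chain of the mast cell receptor for IgE, read 0.67, 0.72 and 0.72 and 3.96, and Cpa3, the mast cell carboxypeptidase, read 2.53, 2.48 and 2.72 and 4.56. All 4 had reference values in the low range, and of them Epx and Il6 still passed with low values raised. Ms4a2 (0.95 to 1.22) and Tpsb2 (1.15 to 1.32), defining markers of the same cells, stayed in the low range, and Mcpt8 read 5.94, 5.88 and 5.36 and 5.70.

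Platelet and megakaryocyte genes had 1 higher and 2 lower of 15 and a median difference of 0.35. Pf4, the platelet chemokine, read 6.44, 6.51 and 6.05 on the references and 3.09 on ITD613. Selp, the adhesion receptor P-selectin, read 6.06, 5.74 and 5.49 and 2.99. Gp5, a subunit of the von Willebrand factor receptor, read 2.73, 2.69 and 2.46 and 4.47, and its higher call was lost with low values raised. Gp9, another subunit of that receptor, read 5.87, 5.46 and 5.26 and 6.79, and lay 0.92 above the nearest reference. Among 14 stem and progenitor regulators Tal1 and Mllt3 were higher and none was lower, and the median was 0.00.

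Signalling outputs of FLT3 showed few genes past the rule. Of 16 STAT5 targets none passed in either direction, and the median difference was -0.28, or -0.17 with low values raised. Of the 16 differences 6 were positive and 10 negative. Il2ra, the interleukin-2 receptor alpha chain, had the largest difference but ranged from 2.62 to 4.30 among the references and read 1.90 on ITD613. Gadd45g had the largest positive difference, 1.18. Pim1, a survival kinase gene chosen after its values were seen, read 8.68, 8.98 and 8.73 and 7.91. The feedback inhibitor gene Cish, also chosen after its values were seen, read 6.15, 6.53 and 6.53 and 6.53. ITD613 thus lay below all 3 references for Pim1 and level with 2 of them for Cish. Of 18 ERK feedback and output genes 1 was higher and 1 lower, with a median of -0.09. Phlda1, an early response gene, read 5.02, 5.02 and 4.70 and 6.74, and Etv5, an ETS factor induced by ERK signalling, read 5.96, 6.02 and 5.78 and 4.55. With 1 h of inhibitor in every group, these values describe treated cells and no array here gives the untreated level.

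Of 11 BCL2 family genes 1 was lower and none higher, with a median of -0.15, or -0.03 with probe sets averaged. Bcl2, the founding survival gene, read 7.06, 7.40 and 7.25 on the references and 5.69 on ITD613, and 1 of its 5 probe sets above the filter passed the rule while all 5 were lower. Of 15 FOXO target and quiescence genes 3 were higher, although the median was -0.05. Besides Btg2 these were Ccng2, an atypical cyclin induced by FOXO factors, which read 4.51, 3.86 and 4.21 and 6.12, and Gadd45a, a stress-induced growth arrest gene, which read 4.83, 3.92 and 3.98 and 5.85. Of 19 p53 targets 2 were higher, Btg2 and Polk, and Tigar was lower, with a median of -0.05. Polk, a translesion DNA polymerase, read 4.60, 4.48 and 4.64 and 5.89. Tigar, a regulator of glycolysis, read 3.90, 4.20 and 3.87 and 2.34, and did not pass with low values raised. Of 8 RGS genes, which end G protein signals, Rgs2 (6.34, 6.37 and 6.08, and 3.66) and Rgs1 (4.66, 4.10 and 4.0, and 2.49) were lower and Rgs10 (3.41, 2.78 and 2.58, and 4.55) was higher. With low values raised only Rgs2 passed.

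Cell cycle genes were mostly a little above the references and few passed the rule. Of 14 genes for D cyclins, their kinases and inhibitors 1 was higher, with a median of 0.52 (0.34 with low values raised) and 12 positive differences. This was Cdkn2c, the CDK4 and CDK6 inhibitor p18, which read 7.01, 7.04 and 7.01 on the references and 8.16 on ITD613. Rb1, the retinoblastoma gene, read 7.34, 6.87 and 7.0 and 8.09. Ccnd2 and Ccnd3, chosen after their values were seen, moved apart: the cyclin D2 gene read 9.15, 9.41 and 9.29 and 8.46, and the cyclin D3 gene read 6.71, 6.86 and 6.60 and 7.71. Neither passed the rule. Of 35 mitosis genes 30 had a positive difference (median 0.27), with Cenpf, a kinetochore gene, higher (5.80, 5.57 and 5.89, and 7.12) and Nek6, a mitotic kinase gene, lower (5.36, 5.77 and 5.66, and 3.12). None of 37 DNA replication genes passed, and their median was 0.10. Of 10 histone genes only H3f3b passed, with a median of 0.46.

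Ribosome production genes were shifted down together without any passing the rule. Of 49 ribosome biogenesis and nucleolus genes, 48 lay below the reference mean and 44 below all 3 references, with a median difference of -0.46 and differences from -1.05 to 0.03. Across all 9554 genes 4611 lay below the reference mean. Wdr43, a factor of small subunit assembly, read 8.53, 8.38 and 8.53 on the references and 7.44 on ITD613, 0.94 below the nearest. Mybbp1a, a nucleolar protein, chosen after its values were seen as was Ncl, read 8.78, 9.22 and 9.01 and 8.10. Ncl, which encodes the abundant nucleolar protein nucleolin, read 11.23, 11.22 and 11.32 and 10.77. All 3 read lower on ITD613 than on every reference. Aminoacyl-tRNA synthetase genes, which charge tRNAs, had a median of -0.26 with 18 of 19 below the reference mean, and Gars, the glycine enzyme, read 9.19, 9.29 and 9.27 and 8.53. The 29 cytoplasmic ribosomal protein genes had a median of 0.02, and none passed. Of 12 MYC and MAX network genes none passed and the median was 0.47, or 0.23 with low values raised and 0.11 under the stricter filter. Myc read 7.41, 7.37 and 7.44 and 8.34, a difference of 0.93 opposite in sign to that of the ribosome biogenesis genes.

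Promoters of this group were searched on both strands for CACGTG, bound by MYC with MAX, and the 2 matched genes furthest below the references are shown. The Wdr43 window is chr17:71615965-71616264 on the + strand and that of Mybbp1a chr11:72441077-72441376 on the + strand, RefSeq, GRCm38.p6. Capitals mark the CACGTG match, which begins at base 268 of the window in Wdr43 and at base 291 in Mybbp1a, in both cases after the start.
Wdr43: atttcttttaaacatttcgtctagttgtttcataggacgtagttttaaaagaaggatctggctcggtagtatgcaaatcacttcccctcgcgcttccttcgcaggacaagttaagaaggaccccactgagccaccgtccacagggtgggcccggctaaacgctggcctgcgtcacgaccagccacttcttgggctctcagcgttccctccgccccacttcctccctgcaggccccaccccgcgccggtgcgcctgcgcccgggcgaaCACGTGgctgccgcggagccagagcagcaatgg
Mybbp1a: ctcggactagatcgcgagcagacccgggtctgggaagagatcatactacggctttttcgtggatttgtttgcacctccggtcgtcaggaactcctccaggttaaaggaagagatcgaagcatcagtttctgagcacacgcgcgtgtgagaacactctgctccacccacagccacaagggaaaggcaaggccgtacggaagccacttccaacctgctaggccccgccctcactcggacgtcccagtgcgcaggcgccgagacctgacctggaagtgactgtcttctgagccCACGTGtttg
CACGTG was in 12 of the 44 matched promoters of the list (27.3%), against 821 of 7828 promoters of genes tested (10.5%) and 1957 of 27025 in the whole table (7.24%). It was in 20 of 221 promoters of higher genes (9.05%) and 19 of 178 of lower genes (10.7%). The STAT motif TTCNNNGAA was in 10.4% and 6.18% of these, against 6.83% of the genes tested. In Wdr43 and Mybbp1a both strands read alike at the match, since CACGTG is its own reverse complement.

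Glycolysis and hypoxia genes had the most lower members of all lists: 6 of 29 (20.7%, against 2.34% of all genes), none higher, and a median of -0.47 (-0.29 with probe sets averaged) with 21 genes below all 3 references. Hk2, the hexokinase of growing cells, read 7.87, 8.09 and 8.0 on the references and 5.76 on ITD613. Slc2a1, the glucose transporter GLUT1, read 7.31, 7.43 and 7.31 and 5.98. Pgam1, a glycolytic mutase, read 8.80, 8.89 and 8.97 and 7.53. The references of these genes spanned 0.22, 0.12 and 0.17. Egln3, an oxygen-sensing prolyl hydroxylase, read 8.43, 8.56 and 8.48 and 6.90, and Ndrg1, a hypoxia-induced gene, read 6.67, 6.77 and 6.46 and 5.32. Car12, a carbonic anhydrase, read 4.44, 4.71 and 4.68 and 2.67 and was the only 1 of the 6 that did not pass with low values raised. Other enzymes did not pass, among them Ldha and Aldoa, chosen after their values were seen. The lactate dehydrogenase gene Ldha read 9.50, 9.74 and 9.65 and 9.22, and the aldolase gene Aldoa read 9.27, 9.58 and 9.40 and 9.40.

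Other metabolic lists had between 0 and 4 genes past the rule. Of 11 pyruvate dehydrogenase genes 10 lay below the reference mean, and Pdp1, the phosphatase that activates the complex, was lower, at 5.70, 5.99 and 5.30 on the references and 2.97 on ITD613. Of 30 cholesterol and fatty acid synthesis genes 21 lay below the mean (median -0.37, or -0.22 with probe sets averaged), and Scd2, a stearoyl-CoA desaturase, was lower, at 10.05, 9.76 and 9.78 and 8.51. The 35 oxidative phosphorylation genes had a median of 0.01 and none passed. Among 23 integrated stress response and amino acid genes 2 were lower and 2 higher. Phgdh, the first enzyme of serine synthesis, read 9.0, 9.24 and 9.21 and 7.21, with all 4 probe sets past the rule, and Asns, asparagine synthetase, read 8.19, 8.43 and 8.20 and 7.18. Trib3, a pseudokinase induced by stress, read 5.21, 4.98 and 4.87 and 6.36, and Ddit3, the stress factor CHOP, read 4.54, 4.35 and 4.20 and 5.68, with 1 of its 2 probe sets of the opposite sign. Of 24 chaperone and unfolded protein response genes Ern1, the sensor IRE1, was higher (4.57, 4.74 and 4.69, and 5.83) and Edem1, which sorts misfolded glycoproteins, was lower (6.45, 6.65 and 6.54, and 4.73).

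The remaining lists had medians from -0.27 (drug efflux transporters) to 0.14 (lysosome) and between 0 and 4 genes past the rule. Of 18 cytokine, chemokine and activation genes 3 were lower (Cd69, Nfkbiz and Ccl3) and 1 was higher (Il6), with a median of -0.14, or -0.01 with low values raised. Nfkbiz, an inducible NF-kB regulator, read 5.09, 5.19 and 5.12 on the references and 2.97 on ITD613, and Ccl3, a chemokine, read 4.16, 4.93 and 4.42 and 2.87, which did not pass with low values raised. Of 14 interferon-stimulated genes Isg20, an exonuclease gene, was higher (3.68, 3.23 and 3.21, and 5.03), and Ifitm1 was lower. Of 15 MHC class I genes Psmb10, an immunoproteasome subunit, was lower (7.03, 7.28 and 7.10, and 6.0). Of 12 integrins Itgal, the LFA-1 alpha chain, was lower (6.87, 7.09 and 6.90, and 5.66). Of 5 drug efflux transporters Abcb1b, which encodes a P-glycoprotein, was lower, at 6.49, 6.34 and 6.42 and 3.18. Of 7 collagen and matrix genes Col5a1 and Thbs1 were higher. Thbs1, the matrix protein thrombospondin-1, read 2.21, 2.12 and 2.65 and 5.67. Of 25 lysosome and autophagy genes only Nbr1, an autophagy receptor, was higher (6.90, 6.95 and 6.97, and 8.09). None of 3 lymphoid genes and of 2 fibroblast, endothelial and epithelial genes above the filter passed.

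**Figure D4:**
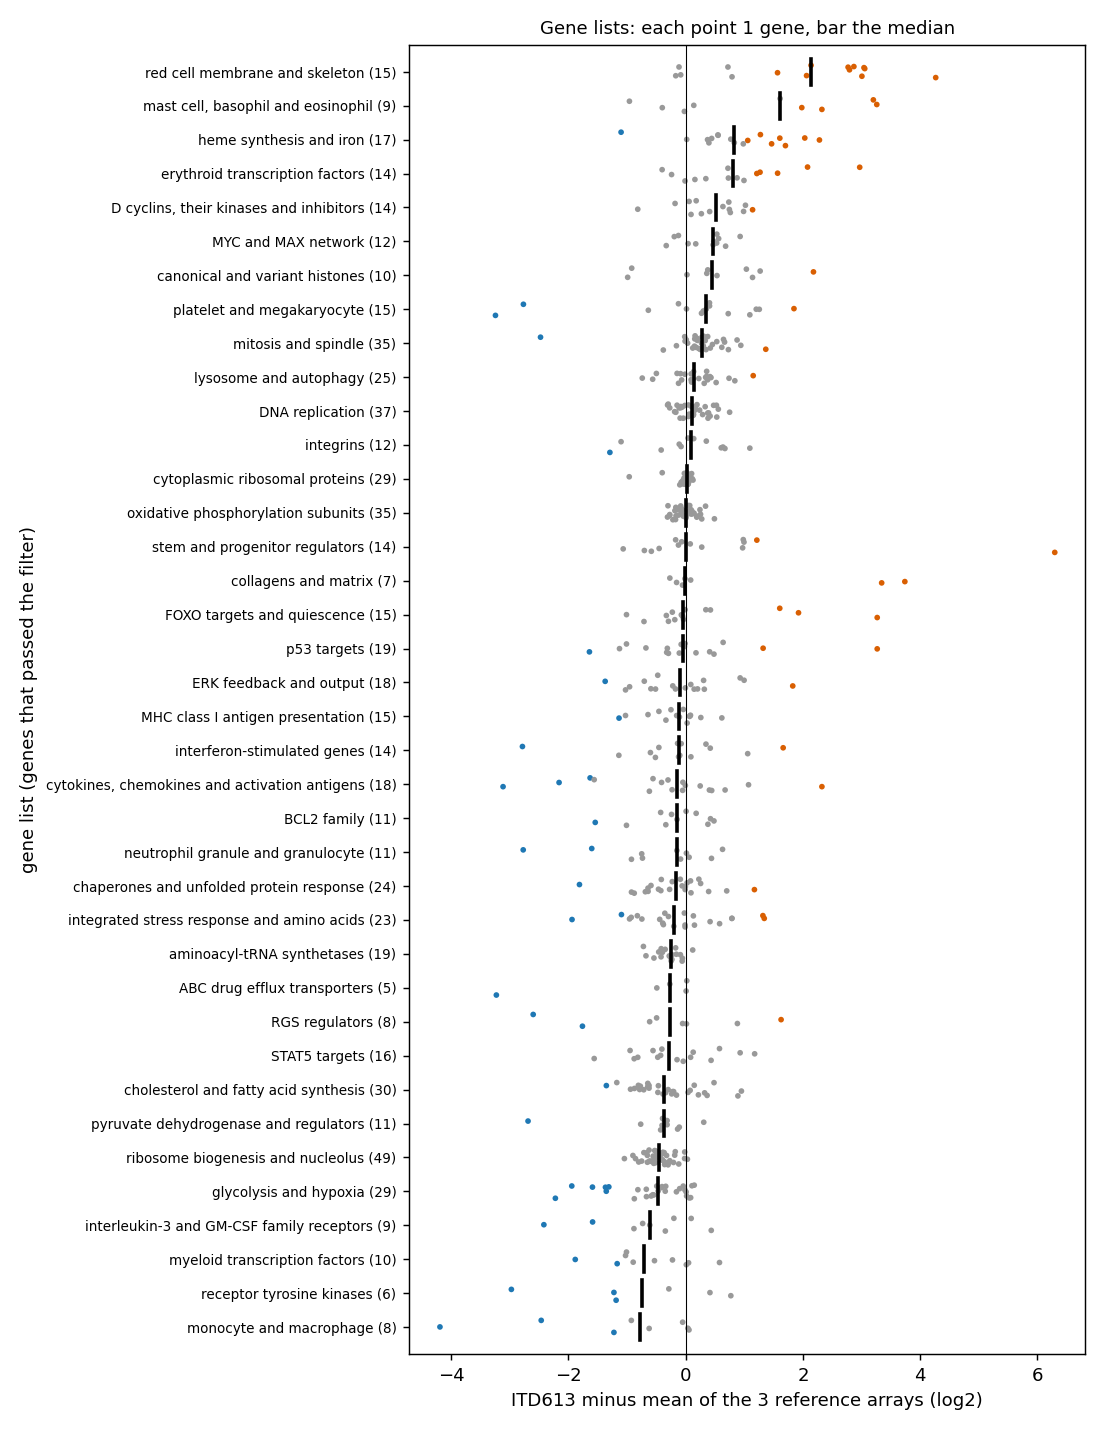
Difference of ITD613 from the mean of the 3 reference arrays (log2, horizontal axis) for the genes of each list with at least 5 genes above the filter, 1 point per gene, with the number of genes in parentheses and a bar at the median. Orange and blue points lie at least 1 log2 above or below all 3 references. Red cell membrane genes have the highest median shown (2.14), and the 49 ribosome biogenesis genes form a narrow band left of 0.

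Genes of no list made up most of the 495, and the following were chosen after their values were seen. Among lower genes, Vim, the intermediate filament vimentin, read 9.29, 9.12 and 9.18 on the references and 7.19 on ITD613, with all 3 probe sets past the rule. Lcp1, the actin bundler of leukocytes, read 9.27, 9.37 and 9.20 and 7.35. Anxa1, annexin A1, read 8.04, 8.13 and 7.85 and 6.01. These are structural or membrane-binding proteins of leukocytes. Il18rap and Il18r1, the chains of the interleukin-18 receptor, read 6.26, 6.41 and 6.35 and 4.19, and 5.44, 5.59 and 5.44 and 3.63. Among higher genes, E2f2, a cell cycle factor prominent in erythroid cells, read 5.86, 5.60 and 5.71 and 7.60. Hemgn, the blood nuclear protein hemogen, read 8.08, 7.62 and 7.95 and 9.72. Trp53inp1, a stress-induced p53 target, read 4.69, 4.21 and 4.52 and 6.52.

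Some of the genes lay next to one another on the chromosome; the pairs named here were chosen after their values were seen. Of 5125 pairs of protein-coding genes adjacent in the RefSeq order that were both tested, 29 had both genes past the rule, and 28 of these went the same way, 16 higher and 12 lower. Over all 9554 genes 5.18% passed the rule, and whether the 29 pairs are more than this share would give was not tested. Pairs of higher genes included Hbb-bh1 with Hbb-y of the beta-globin cluster. Nprl3 and Mpg, which flank the alpha-globin cluster, were higher beside Hba-x, with differences of 1.14 and 1.62. Tal1 stood beside Pdzk1ip1, which differed by 1.46. Lower neighbours were Csf2rb2 with Csf2rb, Il18r1 with Il18rap, Trem1 with Trem3, Tmem176a with Tmem176b, and the run of Mdfic, Tfec, Tes and Cav2, whose differences were -2.44, -2.43, -1.33 and -1.44. The exception was Tspan32 (1.34) beside Cd81 (-1.44). Adjacent genes can be similar copies or overlap, so these pairs are not independent measurements.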

How the data were processed

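The deposited values are on a log2 scale, inferred from their range, and come from RMA, per the submitters' processing notes. RMA corrects the background, equalises the arrays and summarises the probes of each probe set; its version was not given in the sources used here. This normalization makes the array distributions nearly equal, so a shift of all genes in 1 direction cannot be seen.

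Of 45101 probe sets, 64 controls, 932 with several gene symbols and 9160 without a symbol were left out, and 34945 gave 18193 genes. Genes were kept whose maximum over the 4 arrays reached the 60th percentile of all their values (2.75); 52 genes passed by equality. The ITD78 array entered only the choice of probe set. Differences and counts were computed with pandas 2.3.3 and numpy 2.4.6 in Python 3.11.15, and the counting rule was tested on simulated data. With 1 array per construct there was no test and no p-value.

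Genes were named from among the 20 per direction furthest from the nearest reference after values below 3.74 were raised to it, Flt3, up to 6 members at least 1 log2 from the reference mean per gene list, and 2 of a list without such members; members of lists with little difference are mostly given only as counts, and 1 gene of the rule is not reported here. The members and the 41 lists were chosen with earlier results of these data known. Symbols came from the platform annotation, updated through RefSeq (GRCm38.p6), which matched 11 list genes by a synonym or gene ID. Promoter sequences are from the same RefSeq assembly. Alternatives to the probe set rule, the filter, the centring, the threshold and the set of references were computed.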

Additional observations from a re-analysis of the deposited data

How the results depend on the processing

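Under 11 alternative settings the counts of higher and lower genes stayed within 1.5 times of 271 and 224 except in these cases. A threshold of 1.5 log2 left 86 higher and 104 lower genes, and raising values below 3.74 left 148 lower genes. Leaving out 1 reference array gave 287 to 327 higher and 233 to 250 lower genes, and under the rule it can only keep or add genes. With probe sets averaged per gene, 170 of 182 higher and 142 of 160 lower genes were among those of the rule used. Re-centring each array on its median gave 226 and 252. The neutrophil median reversed to 0.018 without ITD598 and to 0.018 without ITD602, and was -1.082 without ITD611, and the drug efflux transporter median to 0.002 without the low-value filter. Meg3 (-0.081) and Hbb-b2 (-0.649) reversed without _x_at and _s_at probe sets, and Runx1 (0.090) with the mean of probe sets; the cause was not tested. Of 844 values of named genes 704 moved by less than the spread of the references and 137 by more. Of 450 list medians 310 moved by less, 137 by more and 3 reversed. No paired analysis was possible because each construct had 1 array. Signals below 3.74 limit how well a difference that reaches into that range can be sized.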
